A study of Mus musculus with 16 samples.

Results

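The genes described here are 10 genes of stratified squamous epithelium, the many-layered lining of skin, oesophagus and mouth: the transcription factor gene Trp63, the keratins Krt14, Krt5, Krt15, Krt6a, Krt4 and Krt13, the envelope proteins Sprr1a and Sprr2h, and the adhesion molecule Dsg3. They were chosen with earlier results of these data known, so the counts of called genes below describe the list and do not test it. The genes were matched to the deposited values through their NCBI Gene IDs, 10 of 36528 IDs in each library, of which 31049 carried a mouse symbol. The libraries hold RNA of cells sorted by GFP from mouse tumours of the genotypes AKVPL and AKVPSL. There are 4 libraries of GFP+ and 4 of GFP- cells per genotype and 16 in all. The design text gives the sorted cells as positive or negative for Lgr5, a receptor of intestinal stem cells, and GFP is read here as its reporter. The genotype names share the letters A, K, V, P and L and differ in the letter S. The sources used here do not spell out the letters, name the driver of the alleles or the cells it acts in, give the host or age of the animals, or say whether replicates came from separate animals or tumours. P-values therefore measure only how far these libraries spread, and part of that spread may be technical. Every title calls the sample a colon AKVPL or AKVPSL derived tumour, and none says where the tumour grew. The tissue field reads Small Intestine for 15 libraries and Colon for 1.

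In stratified epithelium, p63, the protein of Trp63, keeps basal cells in the squamous lineage, and these cells fill their cytoplasm with filaments paired from the type II keratin Krt5 and the type I keratin Krt14. Cells that leave the basal layer exchange that pair for others: Krt4 with Krt13 in the lining of oesophagus and mouth, Krt1 with Krt10 in epidermis, and Krt6a with Krt16 or Krt17 in wounded or fast-growing epithelium. Their outermost layer is a cornified envelope, built from small proline-rich proteins and other precursors that transglutaminases cross-link. The lining of the intestine has a single cell layer instead and builds its filaments from the simple keratins Krt8, Krt18, Krt19 and Krt20.

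Total counts per library ran from 10881115 to 41601600. Levels are given as CPM (counts scaled to library size, with TMM factors, as a rate) and, wherever genes are compared with each other, as the deposited RPKM, which corrects for gene length. Differences are log2 fold changes with their standard error (SE) from 1 edgeR quasi-likelihood model of all 16 libraries, in which 18072 genes were tested and a change is called at a Benjamini-Hochberg adjusted p under 0.05. As a check of the sort, Lgr5 lay between 247.2 and 345.2 CPM in all 8 GFP+ libraries and between 48.3 and 89.7 CPM in all 8 GFP- libraries, so the transcript went with the sort labels in every library. Smad4, a gene often deleted in mouse models of colon cancer, was read because the labels do not say what the letter S stands for, and its mean was higher in AKVPSL (247.4 ± 26.2 CPM in GFP+ and 179.5 ± 26.1 CPM in GFP-, against 152.6 ± 4.24 CPM and 138.7 ± 14.2 CPM in AKVPL). Counts over a whole gene do not check for a deleted exon.

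Between the genotypes, Trp63, Krt14, Krt5 and Krt6a were lower in AKVPSL in both sorts, and no library of AKVPSL reached the lowest AKVPL library of the same sort for any of these 4 genes. In GFP+ cells 7 of the 10 genes fell in AKVPSL and none rose, where 53% of all tested genes changed, 28.1% downward and 24.9% upward (edgeR). Those 7 were Trp63, Krt14, Krt5, Krt6a, Krt13, Krt15 and Dsg3. The 7 became 4 without replicate 2 of AKVPL GFP+, or without replicate 1 or 4 of AKVPSL GFP+. In GFP- cells 4 genes fell (Trp63, Krt14, Krt5 and Krt6a) and 2 rose (Krt4 and Sprr1a), where 62.7% of all tested genes changed, 30.7% downward and 32% upward. The groups did not overlap for 4 genes in GFP+ cells, all lower in AKVPSL, where 26.3% of tested genes were separated in that direction and 25% in the other. They did not overlap for 6 genes in GFP- cells, 4 lower and 2 higher, where the shares were 25.9% and 27.3%. The median log2 fold change of the 10 genes was -1.59 in GFP+ cells and -0.42 in GFP- cells, beside -0.05 and 0.0 over all tested genes.

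Between the sorts, the envelope genes Sprr1a and Sprr2h and the keratin Krt6a were lower in GFP+ than in GFP- cells of both genotypes. In AKVPL, 4 of the 10 genes were lower in GFP+ cells (Krt5, Krt6a, Sprr1a and Sprr2h) and 1 was higher (Krt4), against 16.5% lower and 22.6% higher among all tested genes, 39.1% in all. The same 5 genes had sorts that did not overlap, in a direction shared by 16.5% (lower) and 24.7% (higher) of tested genes. In AKVPSL, 5 were lower (Krt14, Krt6a, Sprr1a, Sprr2h and Dsg3) and none was higher, against 24.6% and 22.4% of all tested genes, 47% in all. The sorts did not overlap for 4 of these 5, all but Krt6a, where 19.6% of tested genes were separated downward and 19.5% upward. The difference between the sort effects of the genotypes passed the test for 1 of the 10 genes, Krt14, where 20.8% of all tested genes were called, 13.7% in that direction and 7.02% in the other. The comparisons share groups of libraries, so their counts are not independent of each other. The split of all calls depended on the scaling: 57.8% of the calls between sorts of AKVPL were higher in GFP+ with TMM, but 42.1% with DESeq2's size factors, 44.9% with library totals and 23.1% when libraries were scaled by their summed intestinal epithelium genes (epithelial scaling). With that last scaling the share moved from 47.7% to 58.6% between sorts of AKVPSL, from 51.1% to 29.1% between genotypes in GFP- cells, and from 33.8% to 81.5% in the difference of sort effects (49.2% and 44.2% with the other scalings). All 10 genes passed the filter on low counts, but Trp63 reached its level of 0.386 CPM in AKVPL libraries only, and Sprr2h in the GFP- libraries and 1 library of AKVPL GFP+, so for these genes the filter itself favours a difference.

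**Figure D1:**
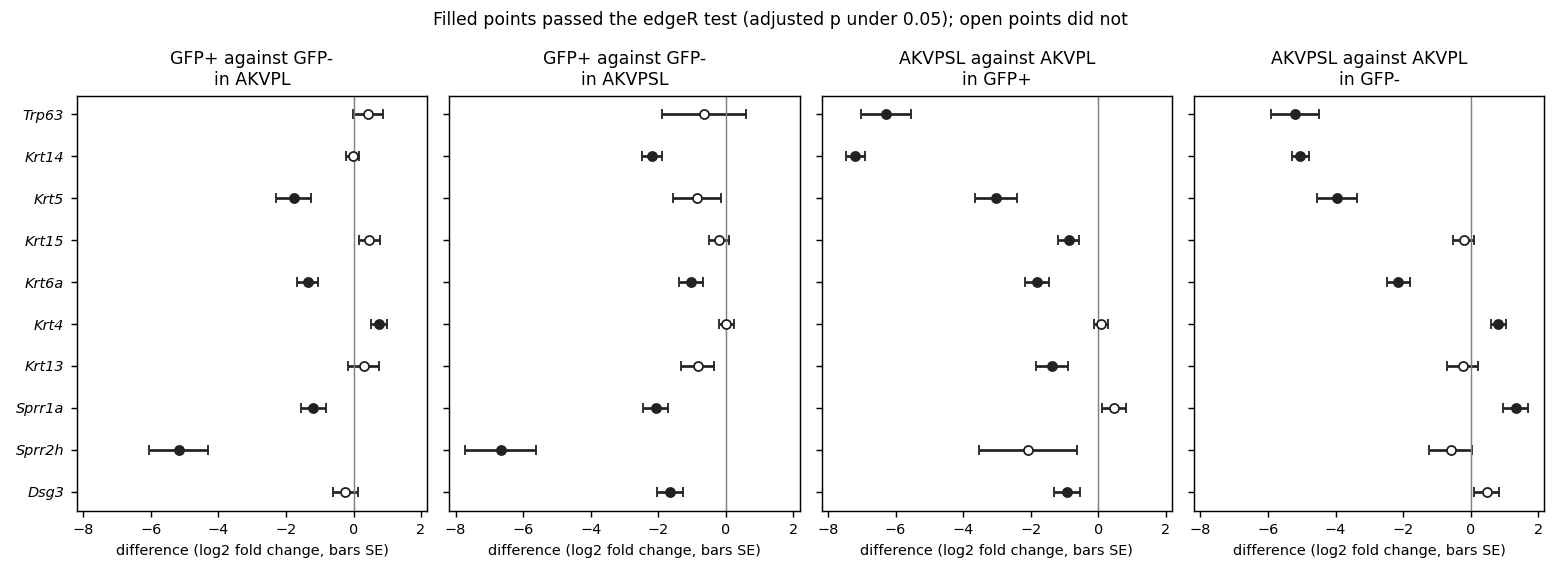
Difference of each gene (log2 fold change, points, with SE as bars) in 4 comparisons, filled where the edgeR test was passed. Trp63, Krt14, Krt5 and Krt6a lie left of 0 in both comparisons of genotypes, and Sprr1a and Sprr2h lie left of 0 in both comparisons of sorts.

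Trp63 (Gene ID 22061, GRCm38 chr16:25683763-25892088) encodes the transcription factor p63. It was read at 2.41, 2.04, 1.68 and 2.88 CPM in the 4 AKVPL GFP+ libraries and at 2.09, 1.95, 0.531 and 2.12 CPM in the 4 AKVPL GFP- libraries. In AKVPSL it was read at 0, 0.1, 0 and 0 CPM in GFP+ and at 0.0328, 0.143, 0 and 0 CPM in GFP- libraries. Every AKVPL library thus lay above every AKVPSL library, although the level in AKVPL is itself low. Summed over 4 libraries, the counts were 245 in AKVPL GFP+ against 3 in AKVPSL GFP+, and 148 against 4 in GFP-. Scaled for library size, that is 94.9 times as many in GFP+ (95% counting interval 32.1 to 463.2) and 44.8 times as many in GFP- (17.1 to 166.5). The intervals cover counting error only. The edgeR estimates were -6.28 ± 0.73 in GFP+ (adjusted p = 8.01e-07) and -5.20 ± 0.72 in GFP- (adjusted p = 6.22e-06). Without replicate 2 of AKVPSL GFP+, which held all 3 counts of its group, the first estimate was -8.88, and without replicate 2 of AKVPSL GFP-, which held 3 of 4 counts, the second was -6.58. The sorts of AKVPL overlapped (0.43 ± 0.45, edgeR adjusted p = 0.478). In RPKM, Trp63 was the lowest of the 10 genes in AKVPSL GFP+ (0.00322), AKVPSL GFP- (0.00565) and AKVPL GFP- (0.229).

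**Figure D2:**
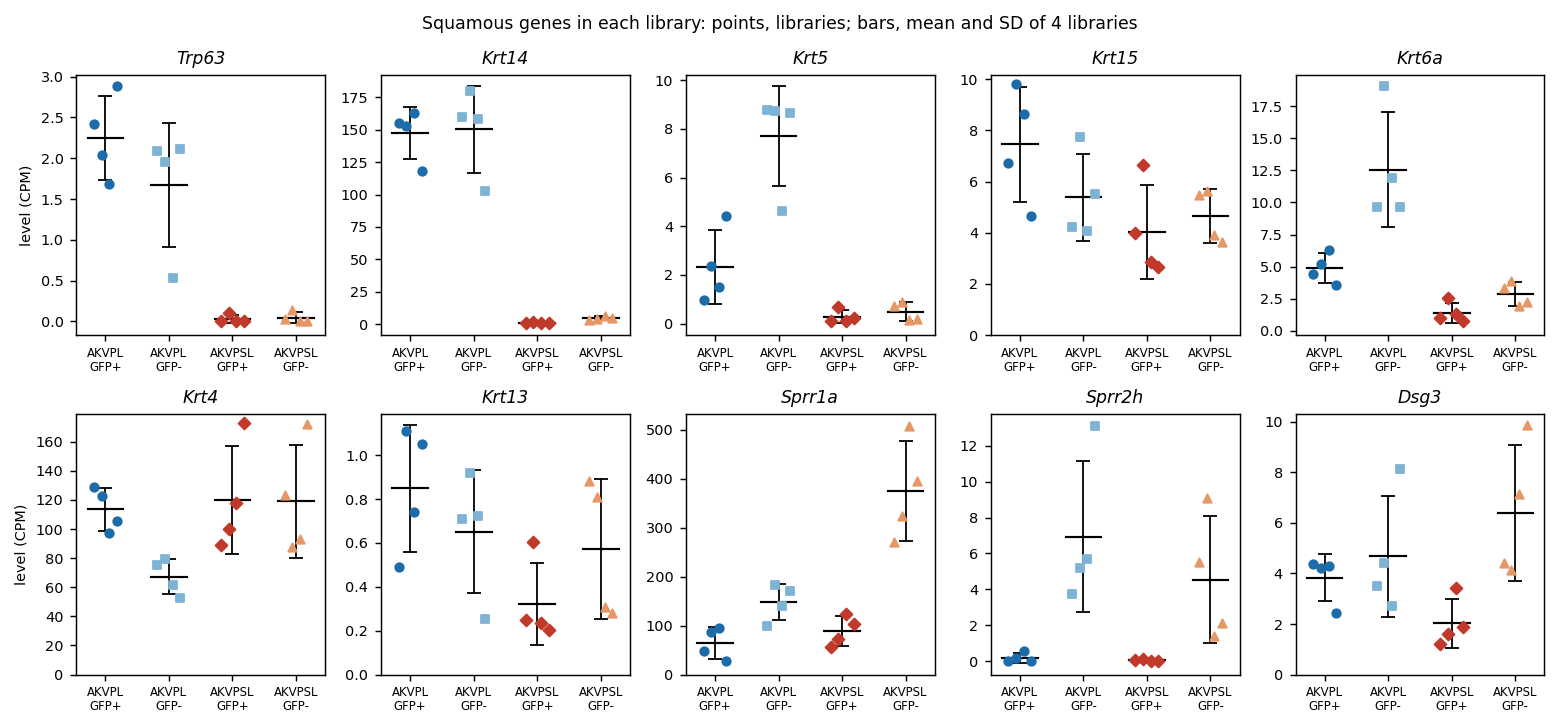
Level of each gene (CPM, linear axes that differ between panels) in every library, by group, with the mean and SD of 4 libraries. Trp63, Krt14, Krt5 and Krt6a sit near 0 or lowest in both AKVPSL groups, Sprr2h sits near 0 in both GFP+ groups, and Krt4 stays between 52.8 and 173 CPM throughout.

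Krt14 (Gene ID 16664, chr11:100203162-100207510), the type I keratin of basal cells, was lower in AKVPSL in both sorts. Its level was 155, 153, 163 and 118 CPM in AKVPL GFP+ libraries and 160, 180, 159 and 103 CPM in AKVPL GFP- libraries. The AKVPSL libraries held 0.545, 1.41, 1.13 and 1.03 CPM in GFP+ and 3.38, 3.62, 6.51 and 4.88 CPM in GFP- libraries. The highest AKVPSL library lay at 6.51 CPM and the lowest AKVPL library at 103 CPM. The gene fell 146-fold in GFP+ cells (-7.19 ± 0.29, edgeR adjusted p = 4.76e-12) and 32.9-fold in GFP- cells (-5.04 ± 0.25, adjusted p = 8.64e-11). In AKVPL the sorts overlapped, with a difference of -0.03 ± 0.20 (edgeR adjusted p = 0.925). In AKVPSL every GFP+ library lay below every GFP- library, and the difference was -2.18 ± 0.29 (edgeR adjusted p = 2.47e-05). The sort effects themselves differed by -2.15 ± 0.35 (edgeR adjusted p = 0.000715), and this difference ran from -2.36 to -1.91 with single libraries left out. With limma on log2(RPKM + 1), a scale that understates changes of low levels, the difference was -1.02 and the sort effect in AKVPSL -1.12, and both passed the test. The summed leukocyte, fibroblast and endothelial markers, given below, were higher in every GFP- than in every GFP+ library within each genotype.

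Of the 1707 windows of 50 bases in the annotated transcripts of Krt14, 86.1% occur in no other gene, and most of the shared ones lie in Krt16. Reads were counted where they aligned uniquely, per the file headers, so the count of Krt14 is uncertain to the extent of the shared windows. Krt17, a partner of Krt6a in wounded epithelium whose windows are 96% its own, averaged 97.3 CPM in GFP+ and 94.8 CPM in GFP- libraries of AKVPL, with SDs of 11.6 and 14.96 (n = 4), and 2.20 ± 0.994 CPM and 5.75 ± 3.54 CPM in those of AKVPSL. It fell between genotypes as well (-5.45 ± 0.37 in GFP+ and -4.05 ± 0.34 in GFP- cells, edgeR), on windows that are nearly all separate from those of Krt14.

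Krt5 (Gene ID 110308, chr15:101707069-101712905), the type II partner of Krt14 in basal cells, was far lower than Krt14 per length and fell with it between the genotypes. Its level was 0.977, 2.35, 1.48 and 4.43 CPM in AKVPL GFP+ libraries and 8.78, 8.75, 4.64 and 8.63 CPM in AKVPL GFP- libraries. The AKVPSL libraries gave 0.099, 0.669, 0.0999 and 0.246 CPM in GFP+ and 0.721, 0.906, 0.133 and 0.202 CPM in GFP- libraries. In AKVPL every GFP+ library lay below every GFP- library (-1.77 ± 0.52, edgeR adjusted p = 0.0131), while in AKVPSL the sorts overlapped (-0.85 ± 0.71, adjusted p = 0.343). Those effects did not pass the test of their difference (0.92 ± 0.90, edgeR adjusted p = 0.49), but passed it with limma on log2(RPKM + 1) (1.09, adjusted p = 0.00948). Krt5 fell between genotypes 8.19-fold in GFP+ cells (-3.03 ± 0.63, edgeR adjusted p = 0.000715) and 15.5-fold in GFP- cells (-3.96 ± 0.60, adjusted p = 2.83e-05). The GFP+ estimate was -3.96 without replicate 2 of AKVPSL GFP+, the highest library of its group.

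The basal pair was thus unequal at the RNA level. In RPKM, Krt14 stood at 75.8 and Krt5 at 0.962 in AKVPL GFP+, and at 82.7 and 3.43 in AKVPL GFP-. Their ratio was 111.4 ± 70.4 (SD, n = 4) in AKVPL GFP+, with libraries from 33 to 196, and 26.3 ± 11.6 in AKVPL GFP-. For AKVPSL it was 7.14 ± 4.89 in GFP+ and 25.3 ± 26.2 in GFP-, where Krt5 is near the limit of counting. Both keratins were small beside the simple keratins, since Krt18 reached 1453 to 1908 RPKM and Krt8 377 to 499 RPKM as group means. Krt14 made up 2.93% (GFP+) and 3.17% (GFP-) of all type I keratin RPKM in AKVPL, and 0.025% and 0.0817% in AKVPSL.

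Krt6a (Gene ID 16687, chr15:101689928-101694305), a type II keratin of wounded and hyperproliferative epithelium, differed both between genotypes and between sorts. Its level was 4.45, 5.22, 6.33 and 3.54 CPM in AKVPL GFP+ and 9.63, 19.0, 11.9 and 9.65 CPM in AKVPL GFP- libraries. Levels in AKVPSL were 0.966, 2.54, 1.30 and 0.740 CPM in GFP+ and 3.38, 3.86, 1.91 and 2.22 CPM in GFP- libraries. The genotypes did not overlap within either sort, and the sorts overlapped in AKVPSL only. The difference between genotypes was -1.82 ± 0.35 in GFP+ cells (edgeR adjusted p = 0.000233) and -2.15 ± 0.34 in GFP- cells (adjusted p = 2.43e-05). The sorts differed by -1.36 ± 0.32 within AKVPL (edgeR adjusted p = 0.00282) and by -1.03 ± 0.35 within AKVPSL (adjusted p = 0.022). The call in AKVPSL was lost without replicate 1, 3 or 4 of GFP+ or replicate 2 of GFP- (-1.0 to -0.84), and with limma on log2(RPKM + 1) (-0.47, adjusted p = 0.0591). Of its windows 54.3% are its own and most of the rest lie in Krt6b, so its counts are uncertain, while Krt6b itself was read at 0.0673 CPM or less in every group mean.

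Krt15 (Gene ID 16665, chr11:100131759-100135949), a type I keratin of basal and bulge cells, varied little beside Krt14 of the same cluster. In AKVPL its level ran from 4.65 to 9.80 CPM in GFP+ and from 4.06 to 7.75 CPM in GFP- libraries, and in AKVPSL from 2.67 to 6.66 and from 3.63 to 5.63 CPM. All 4 groups overlapped. The single call was a fall between genotypes in GFP+ cells (-0.88 ± 0.30, edgeR adjusted p = 0.0184). That call was lost without replicate 2 of AKVPL GFP+ or without replicate 1, 3 or 4 of AKVPSL GFP+ (-0.84 to -0.72). In AKVPSL GFP+ Krt15 was above Krt14 in RPKM, at 2.14 against 0.528, whereas in AKVPL GFP+ it was at 3.94 against 75.8.

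Krt4 (Gene ID 16682, chr15:101918535-101924735), the type II keratin of the suprabasal oesophagus, was abundant in every group and was called lower in AKVPSL in neither sort. Its level was 129, 122, 97.2 and 105 CPM in AKVPL GFP+ and 75.5, 79.3, 61.9 and 52.8 CPM in AKVPL GFP- libraries. Levels in AKVPSL were 89.0, 100, 118 and 173 CPM in GFP+ and 124, 87.9, 93.0 and 172 CPM in GFP- libraries. The AKVPL GFP- group lay below all libraries of the other 3 groups, which overlapped each other. Within AKVPL, Krt4 was higher in the GFP+ sort (0.75 ± 0.23, edgeR adjusted p = 0.0162). Among GFP- cells it was higher in AKVPSL than in AKVPL (0.82 ± 0.23, edgeR adjusted p = 0.00525). Both calls were lost with epithelial scaling (0.57 and 0.49, edgeR adjusted p = 0.0842 and 0.075). The first was also lost with no filter (0.66) and without replicate 4 of AKVPL GFP- (0.65). The sort effects on Krt4 differed by -0.74 (edgeR adjusted p = 0.109), and passed the test with the replicate number within genotype as a block (adjusted p = 0.0075) or without replicate 4 of AKVPSL GFP+ (-0.97).

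Krt13 (Gene ID 16663, chr11:100117327-100121566), the usual partner of Krt4, was close to the limit of counting. For AKVPL it ran from 0.488 to 1.11 CPM in GFP+ and from 0.254 to 0.919 CPM in GFP- libraries, and for AKVPSL from 0.205 to 0.603 and from 0.282 to 0.885 CPM. It fell between genotypes in GFP+ cells (-1.37 ± 0.47, edgeR adjusted p = 0.0199), where the groups overlapped. The call was lost without replicate 2 of AKVPL GFP+ or replicate 1, 3 or 4 of AKVPSL GFP+ (-1.24 to -1.19). In RPKM, Krt4 stood at 48.4 and Krt13 at 0.589 in AKVPL GFP+, and at 51.0 and 0.397 in AKVPSL GFP-, so Krt4 too stood far above its usual partner. Without replicate 2 of AKVPSL GFP+, Krt13 was also called lower in GFP+ cells of AKVPSL (-1.30, edgeR adjusted p = 0.0499).

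Sprr1a (Gene ID 20753, chr3:92483954-92485881), an envelope precursor, was the most abundant of the 10 genes per length in 3 of the 4 groups, at 182.7 RPKM in AKVPL GFP- and at 102.4 (GFP+) and 432.4 RPKM (GFP-) in AKVPSL, and second to Krt14 in AKVPL GFP+ (74.5 against 75.8, which is within the spread of the libraries). Its level was 48.7, 86.4, 95.5 and 27.7 CPM in AKVPL GFP+ and 98.6, 182, 140 and 172 CPM in AKVPL GFP- libraries. The AKVPSL values were 56.5, 73.0, 124 and 103 CPM in GFP+ and 271, 324, 508 and 396 CPM in GFP- libraries. In both genotypes every GFP+ library lay below every GFP- library. The AKVPL sorts differed by -1.19 ± 0.37 (edgeR adjusted p = 0.0196) and those of AKVPSL by -2.07 ± 0.37 (adjusted p = 0.000553). The call in AKVPL was lost without replicate 1 of GFP+ or replicate 2 of GFP- (-1.08 each). The sort effects did not pass the test of their difference (-0.88, edgeR adjusted p = 0.239). Among GFP- cells it rose in AKVPSL by 1.34 ± 0.37 (edgeR adjusted p = 0.00568), while among GFP+ cells the genotypes overlapped (0.46, adjusted p = 0.306).

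Sprr2h (Gene ID 20762, chr3:92385685-92387324), a second envelope precursor, was almost confined to GFP- libraries in these counts. It was read at 0, 0.154, 0.586 and 0 CPM in AKVPL GFP+ and at 3.75, 5.18, 5.70 and 13.1 CPM in AKVPL GFP- libraries. In AKVPSL it was read at 0.0495, 0.1, 0 and 0 CPM in GFP+ and at 5.54, 9.11, 1.37 and 2.14 CPM in GFP- libraries. No GFP+ library reached a GFP- library. The summed counts were 20 against 520 in AKVPL and 5 against 444 in AKVPSL, in AKVPSL 113 times as many in GFP- after scaling (95% counting interval 48.1 to 349.8). The AKVPL sorts differed by -5.18 ± 0.87 (edgeR adjusted p = 0.000285) and those of AKVPSL by -6.67 ± 1.05 (adjusted p = 0.000153). These became -6.76 and -7.47 without the GFP+ library that held most counts (replicate 3 and replicate 2). Between genotypes the groups overlapped in both sorts. The difference was -2.08 ± 1.44 in GFP+ (edgeR adjusted p = 0.241) and -0.59 ± 0.64 in GFP- cells (edgeR adjusted p = 0.441).

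The markers of several cell types moved with the same sorts. The summed level of 16 leukocyte genes ran from 424.9 to 1185 CPM in AKVPL GFP+ and 4076 to 7362 CPM in AKVPL GFP-, and from 57.6 to 307.1 CPM in AKVPSL GFP+ and 821.7 to 3771 CPM in AKVPSL GFP-. Of these genes 15 were tested, and all 15 were lower in GFP+ cells of both genotypes (edgeR), with 1 call lost in AKVPSL under epithelial scaling. The 10 fibroblast genes summed to 503 to 1065 against 3877 to 8217 CPM in AKVPL and to 184.5 to 958.8 against 1201 to 2510 CPM in AKVPSL, and 9 and 10 of the 10 were lower in GFP+ cells. The 8 endothelial genes summed to 45.9 to 82.2 against 329.1 to 609.2 CPM and to 10.9 to 34.7 against 68.4 to 305.7 CPM, and 8 of 8 were lower in both. Between genotypes, 10 of the 15 leukocyte genes, 1 of 10 fibroblast genes and 3 of 8 endothelial genes were lower in AKVPSL GFP+, and 8, 8 and 4 in AKVPSL GFP-. The 7 genes of smooth muscle and myoepithelium, a cell type that holds Krt14 and Krt5 in glands, summed to 90.4 to 109.9 CPM in AKVPL GFP+ and 206.6 to 519.1 CPM in AKVPL GFP-, and to 163.8 to 220.0 and 201.0 to 243.0 CPM in AKVPSL. Of the 6 tested, 5 and 4 were lower in GFP+ cells of AKVPL and AKVPSL and 1 was higher in each. Between genotypes 1 of them was lower and 1 higher in AKVPSL GFP+, and 5 and 1 in AKVPSL GFP- (edgeR), with medians of -0.62 and -1.23. The 9 genes of skeletal muscle, fat and nerve summed to 19.2 to 57.8 CPM in AKVPL GFP+ and 53.7 to 143.4 CPM in AKVPL GFP-, and to 4.73 to 5.79 and 3.67 to 6.52 CPM in AKVPSL, so that the genotypes did not overlap, and 6 to 8 of the 9 were under 1 CPM in each group. Of the 6 tested, 3 were lower and 1 higher in AKVPSL GFP+ (2 and 1 under epithelial scaling), and 2 and 0 in AKVPSL GFP-, and between sorts 2 were lower in GFP+ cells of AKVPL and none was called in AKVPSL. The part of all these markers in the differences of the 10 genes was not tested. In bulk samples, fewer cells of a type and less RNA per cell cannot be told apart. The leukocyte, fibroblast and endothelial sums of every AKVPSL GFP- library were below those of every AKVPL GFP- library. In that comparison of the 10 genes, Trp63, Krt14, Krt5 and Krt6a were called lower and Krt4 and Sprr1a higher in AKVPSL. The other 4 were not called. The 20 intestinal epithelium genes summed to 12730 to 15980 CPM in AKVPL GFP+ and 11190 to 13660 CPM in AKVPL GFP-. In AKVPSL they summed to 14330 to 14790 and 15310 to 16130 CPM, so the GFP- groups did not overlap. Of the 19 tested, 8 were higher and 0 lower in GFP+ cells of AKVPL, and 3 and 5 in AKVPSL (edgeR). Between genotypes 5 were higher and 6 lower in AKVPSL GFP+, and 11 and 3 in AKVPSL GFP-.

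**Figure D3:**
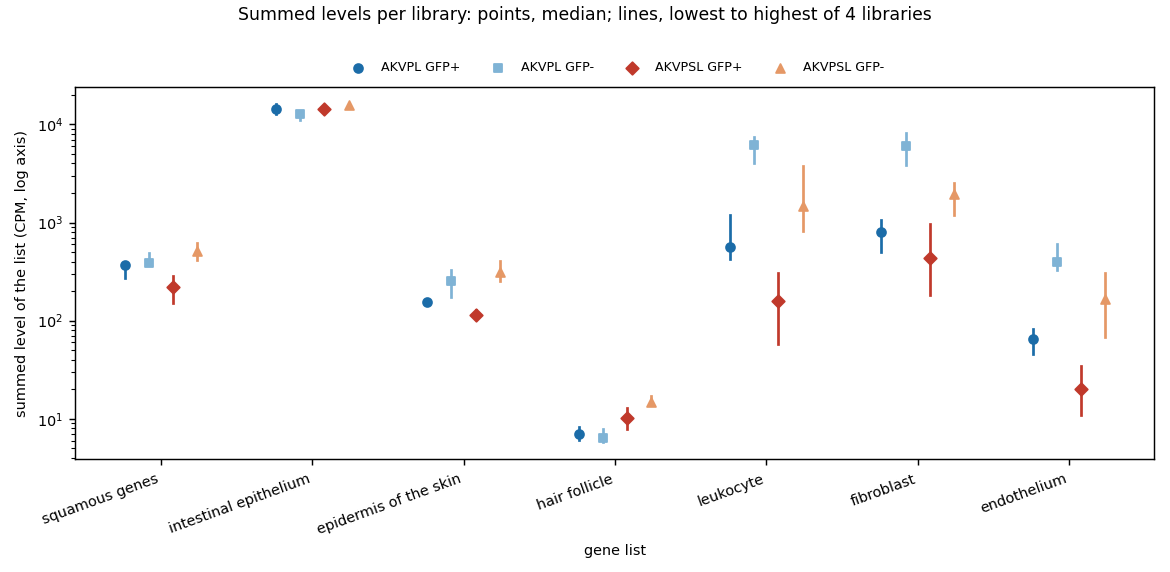
Summed level of each gene list (CPM, log axis) by group, as the median (points) and the lowest and highest of 4 libraries (lines). Leukocyte, fibroblast and endothelium sums are higher in GFP- than in GFP+ libraries of the same genotype. The intestinal epithelium sum lies between 11190 and 16130 CPM and is higher in every AKVPSL GFP- than in every AKVPL GFP- library.

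The squamous genes were also set beside markers that define the skin. Of 18 epidermis genes matched, 8 passed the filter, and 10 or 11 had a mean under 1 CPM in each group. The list summed to 146.3 to 161.7 CPM in AKVPL GFP+ and 173.3 to 325.8 CPM in AKVPL GFP-. In AKVPSL the sums were 107.3 to 127.1 and 256.2 to 403.8 CPM. Among defining epidermal genes, Krt2, Krt77 and Casp14 were at 0 in all libraries of AKVPL GFP+ and AKVPSL GFP-. Flg was at 0 in both AKVPSL groups, and Krt1 was at 0.131 CPM or less as a group mean. In AKVPL GFP-, by contrast, none of the 18 genes was at 0 over the group. Krt2 averaged 0.0459 CPM there, Krt77 0.0121 CPM and Flg 0.110 CPM. Other genes of the list were well above 0. Krt10, the partner of Krt1, had group means of 5.42 to 9.26 CPM and was called higher in AKVPSL GFP- than in AKVPL GFP- (0.76 ± 0.19, edgeR). Lgals7 had a mean of 200.7 CPM in AKVPSL GFP- against 14.7 CPM in AKVPL GFP- (3.75 ± 0.20, edgeR adjusted p = 7.79e-11). Of the 8 tested, 3 were higher and 4 lower in GFP+ cells of AKVPL, and 0 and 7 in AKVPSL (0 and 4 under epithelial scaling). Between genotypes 1 was higher and 4 lower in AKVPSL GFP+, and 3 and 5 in AKVPSL GFP- (1 and 5 under epithelial scaling), with medians of -0.91 and -0.83. Loricrin (Lor), the main envelope protein of epidermis, had a mean of 30.9 CPM in AKVPL GFP+ and of 107.1 CPM in AKVPL GFP-, with SDs of 5.09 and 39.8 (n = 4). In AKVPSL its means were 11.96 and 38.0 CPM, with SDs of 2.06 and 12.5, and it was called lower there than in AKVPL in both sorts (-1.37 ± 0.25 in GFP+ and -1.49 ± 0.25 in GFP- cells, edgeR). The kallikrein Klk7, a protease of the shedding skin surface, was at 34.9 CPM in AKVPSL GFP- and 2.55 CPM in AKVPSL GFP+. Of 22 hair follicle genes, 20 or 21 were under 1 CPM in each group, and their sum never passed 16.9 CPM. In the melanocyte list of 6 genes, Tyr was at 0 in every group.

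The sequences before the starts of the envelope genes are shown because Sprr2h and Sprr2f of the same gene cluster were both nearly absent from GFP+ libraries of AKVPL. Sprr2g, which lies between them and was also low there, is not shown. The RefSeq table of build GRCm38.p6 holds windows for 5 of the 10 genes (Krt14, Krt5, Krt13, Sprr1a and Sprr2h), and its window for Krt14 starts inside the gene and is not shown. Each line gives the 250 bases before the start, 5′ to 3′ in the direction of the gene: Sprr2h at chr3:92385435-92385684 (plus strand), Sprr2f at chr3:92364937-92365186 (plus strand) and Sprr1a at chr3:92485882-92486131 (minus strand). Capitals mark matches to the AP-1 motif TGANTCA, the octamer ATGCAAAT and the TATA box TATAAA, searched on both strands; none of the marked matches overlaps another motif.
Sprr2h: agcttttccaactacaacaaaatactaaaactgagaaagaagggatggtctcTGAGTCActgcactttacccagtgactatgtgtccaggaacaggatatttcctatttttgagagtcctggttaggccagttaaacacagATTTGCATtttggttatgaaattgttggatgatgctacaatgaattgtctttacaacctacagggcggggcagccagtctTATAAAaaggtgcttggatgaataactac
Sprr2f: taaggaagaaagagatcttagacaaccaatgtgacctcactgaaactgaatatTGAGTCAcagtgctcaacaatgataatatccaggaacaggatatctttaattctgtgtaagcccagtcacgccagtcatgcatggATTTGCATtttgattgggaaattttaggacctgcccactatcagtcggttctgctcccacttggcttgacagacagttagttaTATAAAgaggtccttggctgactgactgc
Sprr1a: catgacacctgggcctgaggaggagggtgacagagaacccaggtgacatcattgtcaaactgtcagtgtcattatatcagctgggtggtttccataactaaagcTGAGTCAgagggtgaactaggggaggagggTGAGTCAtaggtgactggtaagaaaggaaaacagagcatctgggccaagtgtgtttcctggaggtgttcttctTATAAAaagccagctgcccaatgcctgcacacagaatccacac

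Both Sprr2 windows hold, in the same order, 1 AP-1 match (first base at -198 in Sprr2h and -197 in Sprr2f, counted back from the start site), 1 octamer match on the minus strand (-109 and -112) and 1 TATAAA (-29 in both). The Sprr1a window holds 2 AP-1 matches (-146 and -116), a TATAAA (-43) and no octamer. An AP-1 match also lies at -196 in the window at the annotated start of Krt13. A further Krt13 window, whose start site at chr11:100120577 lies inside the gene, holds AP-1 matches at -183 and -34. Krt13 was not called between the sorts in either genotype in the main fit. AP-1 is the factor of Fos and Jun proteins and octamers are read by POU proteins. Over all 32851 windows of this length in the table, 6.75% hold an AP-1 match, 1.6% an octamer and 12.4% a TATAAA. The core of p63 motifs, read as C, 2 bases of A or T and G, then 6 bases of any kind and the same 4 letters again, is in 5.84% of all windows and in none of those of the 5 genes. The matches describe these letters and do not show binding.

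Around these genes, the epidermal differentiation complex of chromosome 3 holds 58 genes in the annotation, among them Sprr, Lce and S100a genes, and 23 were tested. In AKVPL 3 of the 23 were higher and 14 lower in GFP+ cells, and in AKVPSL 0 and 20 (edgeR). Among all tested genes the shares were 22.6% and 16.5% in AKVPL, and 22.4% and 24.6% in AKVPSL. Besides Sprr2h, the mean was near 0 in GFP+ and not in GFP- cells of AKVPL for 6 more of the tested genes. These were Sprr2f (0.123 against 7.77 CPM), Sprr2g (0.0930 against 1.82 CPM), Rptn (0.185 against 7.26 CPM) and the late envelope genes Lce3c (0.0385 against 3.08 CPM), Lce3d (0.0241 against 1.47 CPM) and Lce1h (0.0519 against 1.502 CPM). They and Sprr2h are among the 14. Their GFP+ means lay under the filter level of 0.386 CPM, so for these genes too the filter itself favours a difference. Sprr2f was also lower in AKVPSL than in AKVPL among GFP- cells (-5.82 ± 0.56, with a mean of 0.132 CPM). Involucrin (Ivl), an early envelope protein of the same complex, stood at 39.3 ± 2.72 CPM (SD, n = 4) in AKVPSL GFP- against 8.56 ± 1.59 CPM in AKVPL GFP-. The transglutaminase Tgm1, encoded elsewhere, stood at 111.7 ± 20.1 against 23.1 ± 5.14 CPM. Between genotypes, 6 of the 23 genes were higher and 6 lower in GFP+ cells, and 11 and 6 in GFP- cells. The shares of all tested genes were 24.9% and 28.1% in GFP+, and 32% and 30.7% in GFP- cells.

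**Figure D4:**
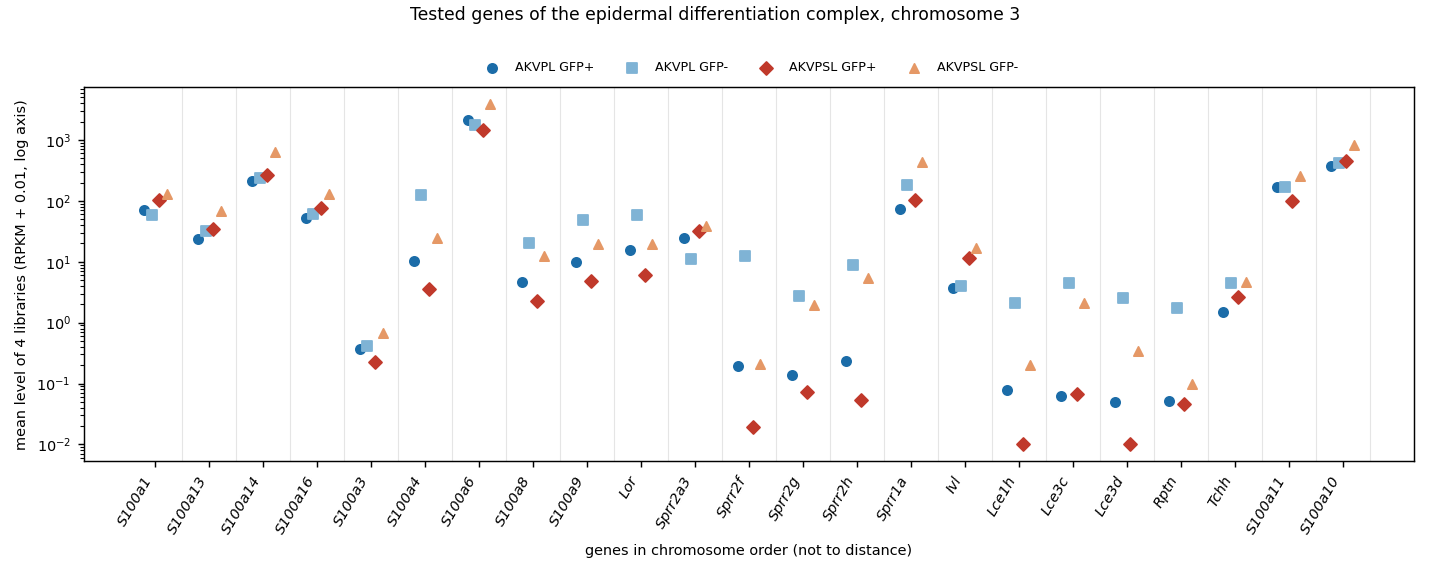
Mean level (RPKM + 0.01, log axis) of the 23 tested genes of the epidermal differentiation complex in chromosome order, by group. Sprr2f, Sprr2g, Sprr2h, Lce1h, Lce3c, Lce3d and Rptn lie near the floor in GFP+ groups, while Sprr1a stays at 74.5 RPKM or more.

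Dsg3 (Gene ID 13512, chr18:20510274-20541310), a desmosomal cadherin of basal and lower suprabasal layers, was low in all groups. Its level was 4.37, 4.20, 4.29 and 2.44 CPM in AKVPL GFP+ and 3.51, 4.41, 2.71 and 8.13 CPM in AKVPL GFP- libraries. The AKVPSL values were 1.21, 1.61, 3.43 and 1.89 CPM in GFP+ and 4.42, 4.15, 7.13 and 9.88 CPM in GFP- libraries. The sorts did not overlap in AKVPSL (-1.66 ± 0.38, edgeR adjusted p = 0.00168) and overlapped in AKVPL (-0.25, adjusted p = 0.615). The effects did not pass the test of their difference (-1.40 ± 0.52, edgeR adjusted p = 0.0651), but passed it with the replicate number as a block (-1.49 and adjusted p = 0.0354 within genotypes, -1.45 and 0.0469 shared). They also passed it without replicate 4 of AKVPL GFP-, replicate 3 of AKVPSL GFP+ or replicate 2 of AKVPSL GFP- (-1.78 to -1.56). Its fall between genotypes in GFP+ cells was close to the threshold (-0.93 ± 0.38, edgeR adjusted p = 0.0463) and was lost in 13 of 24 alternatives. Between genotypes in GFP- cells the difference was 0.48 (edgeR adjusted p = 0.267), and 0.85 and called without replicate 4 of AKVPL GFP- (adjusted p = 0.0488). The other epidermal desmogleins were at or near 0, with Dsg1a at 0.0266 CPM or less and Dsg1b at 0.0636 CPM or less in each group mean, whereas Dsg2, the desmoglein of simple epithelium, stood at 256.6 to 479.7 CPM.

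Along the chromosomes, the fall of Krt14 between genotypes was not that of its whole cluster. The type I cluster of chromosome 11 holds 27 annotated keratins, of which 15 were tested. In AKVPSL 3 were higher and 8 lower in GFP+ cells, and 6 and 3 in GFP- cells (edgeR), with medians of -0.88 and -0.24. Among all tested genes, 24.9% were higher and 28.1% lower in GFP+ cells, and 32% and 30.7% in GFP- cells. Krt14, Krt16 and Krt17 follow each other, and all 3 fell in GFP+ cells (Krt16 with -2.92 ± 0.32), while in GFP- cells Krt16 did not pass the test (-0.55 ± 0.27, edgeR adjusted p = 0.0892). Krt19, the simple keratin between Krt15 and Krt14, had group means from 362 to 718 RPKM. Its change from AKVPL to AKVPSL was -0.66 ± 0.09 in the GFP+ sort and 0.45 ± 0.09 in the GFP- sort. Each change passed the edgeR test, so Krt19 went down with Krt14 in the first sort and up in the second. In the chromosome 15 cluster, 12 of 27 keratins were tested. Beside the same shares of all tested genes, 1 was higher and 5 lower in AKVPSL GFP+, and 4 and 3 in AKVPSL GFP-. Krt5 and Krt6a together made up 0.258%, 0.684%, 0.0672% and 0.0822% of type II keratin RPKM in GFP+ and GFP- cells of AKVPL and then of AKVPSL. Krt4 alone made up 4.25%, 2.39%, 5.18% and 3.04% in that order.

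**Figure D5:**
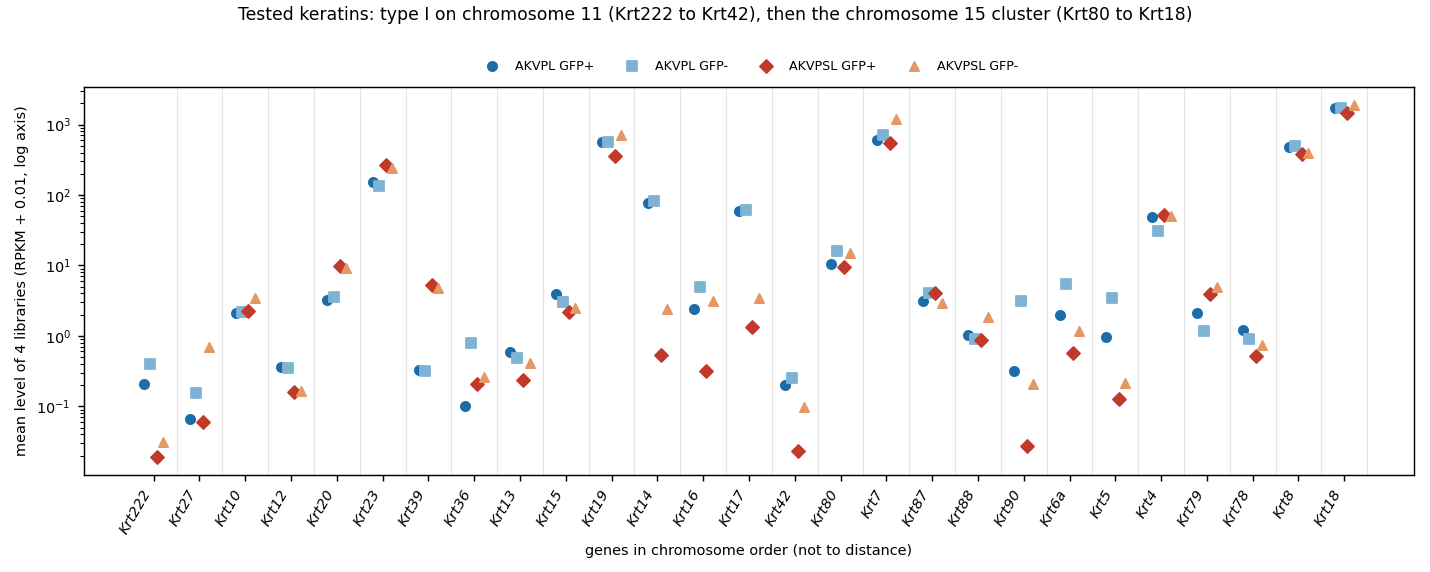
Mean level (RPKM + 0.01, log axis) of the 27 tested keratins in chromosome order, by group. Krt14 and Krt17 lie between 58.6 and 82.7 RPKM in AKVPL and between 0.528 and 3.47 RPKM in AKVPSL, while Krt19 lies between 362 and 718 RPKM.

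Other genes of the squamous and basal programme went in both directions between the genotypes. Of 13 squamous transcription factor genes tested, 7 were higher and 2 lower in AKVPSL GFP+, and 6 and 2 in AKVPSL GFP- (4 and 4 under epithelial scaling), and their median was 0.43 and 0.06. Sox2, which works with p63 in the oesophagus, rose from 0.438 to 4.73 CPM (3.43 ± 0.34) and Pax9 from 6.37 to 27.5 CPM (2.10 ± 0.15) in GFP+ cells, whereas Pitx1 fell from 151.4 to 0.516 CPM (-8.32 ± 0.57). Of 12 hemidesmosome and basal lamina genes, which anchor basal cells, 1 was higher and 9 lower in GFP+ and 2 and 7 in GFP- cells (0 and 9 under epithelial scaling), with medians of -0.71 and -0.54. Col7a1, the anchoring fibril collagen, fell from 151.0 to 1.84 CPM in GFP+ (-6.39 ± 0.21) and from 145.5 to 7.61 CPM in GFP- cells (-4.26 ± 0.18). Lama3, which encodes a laminin chain of the basal lamina, fell from 239 to 89.5 CPM in GFP+ cells (-1.42 ± 0.16). All changes named here passed the edgeR test.

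Among 15 tested genes of basal cells and p63 targets, 4 were higher and 5 lower in AKVPSL GFP+, and 6 and 5 in AKVPSL GFP- (3 and 6 under epithelial scaling), with medians of -0.45 and 0.19. Ngfr, a surface receptor of oesophageal and airway basal cells, rose from 11.2 to 88.8 CPM in GFP+ cells (3.02 ± 0.40), opposite to Krt14, while Pdpn fell from 3.47 to 0.769 CPM and Trim29 from 4.34 to 1.53 CPM. Of 11 desmosome genes, 1 was higher and 6 lower in GFP+ and likewise in GFP- cells, with medians of -0.40 and -0.28. Pkp1, a plakophilin of stratified epithelium, fell from 178 to 64.2 CPM in GFP+ cells (-1.47 ± 0.11). Of 16 cornified envelope genes, 4 rose and 4 fell in GFP+, and 5 and 3 in GFP- cells. Of 10 oesophagus and forestomach genes, 4 rose and 2 fell in GFP+, and 5 and 0 in GFP- cells (3 and 0 under epithelial scaling), with Krt23 from 214 to 414 CPM (0.95 ± 0.16) in the latter. Of 8 other stratified keratins, 2 rose and 3 fell in GFP+, and 3 and 1 in GFP- cells (2 and 2 under epithelial scaling). Between the sorts, 9 of 16 envelope genes were lower and 1 higher in GFP+ cells of AKVPL, and 12 and 0 in AKVPSL (medians -1.63 and -1.46), while 5 of 10 oesophagus genes were lower and none higher in each genotype (medians -1.0 and -0.69). These counts are edgeR calls, and the background shares of each comparison and the medians of all tested genes are those given with the 10 genes, and 0.14 and -0.01 between the sorts of AKVPL and AKVPSL. Some lists share genes, so their counts are not independent. S100a8 and S100a9 are in both the envelope and the leukocyte list, and both were called lower in GFP+ cells of each genotype. Lor is in the envelope and epidermis lists, and Krt23 in those of stratified keratins and oesophagus.

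The genes whose profile over the 16 libraries was most like that of Trp63 or Krt14 were found by the root mean square difference of log2(CPM + 1), each gene centred on its own mean. Nearest to Trp63 were Cadps (0.205), Zfp976 (0.207), Dnah5 (0.229), the pseudogene Btnl5-ps (0.233), Fgd1 (0.24) and Cideb (0.243), against a median of 0.859 over all tested genes. Cadps stood at 2.27 and 1.40 CPM in AKVPL GFP+ and GFP- and at 0.0373 and 0.0164 CPM in AKVPSL. Nearest to Krt14 were Col7a1 (0.38), Myl9 (0.386), Spib (0.449), Lrmp (0.537), Krt17 (0.606) and Bnip5 (0.622), against a median of 2.81. Myl9 stood at 145.3 and 140.3 CPM in AKVPL and at 1.25 and 7.42 CPM in AKVPSL. Among the 10 genes, the nearest to Krt14 by this measure was Krt5 (1.98) and the nearest to Trp63 was Krt15 (0.644). The scale understates changes of low levels such as those of Trp63, so nearness to it does not mean a like fold change. Between genotypes Trp63 changed by -6.28 in GFP+ and -5.20 in GFP- cells, Krt15 by -0.88 and -0.21, and Krt5, farther at 0.732, by -3.03 and -3.96. These libraries share their groups and cell makeup, so the likeness is a description of 16 libraries in 4 groups.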

How the data were processed

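RNA-seq of 16 libraries was used, each with its own table of NCBI Gene IDs. Per the file headers, the authors deposited for each gene the count of reads that align uniquely to its model, and an RPKM value adjusted by size factors. Alignment was with GSNAP and the build was GRCm38, per the submitters' processing notes. The sources used here do not say whether counting used strand, so antisense or overlapping genes cannot be told apart. Gene IDs were matched to symbols by the reference tables, and no column of other samples was present. The 10 genes, the gene lists and the rules for naming genes were chosen with earlier results of these data known.

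Counts were fitted in R 4.3.3 with edgeR 4.0.16 (TMM, filterByExpr by group, robust quasi-likelihood F test, 1 mean for each of 4 groups, 12 residual degrees of freedom), with Benjamini-Hochberg adjustment over the 18072 genes tested and a threshold of 0.05. The SE is the log2 fold change divided by the square root of F. The fit was tested on simulated counts. Total counts of 10881115 to 41601600 per library limit the precision for genes with few counts. Ratios to groups with few counts carry an exact counting interval. Within groups, all 24 pairs of libraries differed by more than counting noise (chi-square per degree of freedom 9.049 to 73.576), so none was merged. In AKVPL the deviations of same-numbered GFP+ and GFP- libraries from their group means correlated at 0.37, 0.24, 0.32 and 0.16, and every number matched its own best. In AKVPSL they did so at 0.50, 0.42, 0.04 and 0.31, which does not meet the rule for pairing. Between genotypes, numbers 1, 3 and 4 of AKVPL GFP- also matched their own best in AKVPSL GFP- (0.22, 0.20 and 0.29). Numbers 1 and 4 of AKVPL GFP+ did so in AKVPSL GFP+ (0.31 and 0.17). The correlations thus do not settle whether the numbers pair samples. The labels do not state a pairing either, so the main model leaves the numbers out and replicate blocks were run as alternatives.

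Alternatives were DESeq2 1.42.0 and its size factors, library totals, epithelial scaling (libraries scaled by their summed intestinal epithelium genes), no filter, a minimum of 1 CPM in 4 libraries, limma 3.58.1 on log2(RPKM + 1), replicate blocks, and leaving out each library. Named genes are the 10, from each list up to 4 called genes per comparison with the largest change and a mean of at least 1 CPM, the 6 nearest in profile to Trp63 and to Krt14, and Lgr5, Smad4, Krt8 and Krt18. Krt1, Krt10, Krt6b, Krt19, Lgals7, Sprr2g, Lce1h, Lce3d, Dsg1a, Dsg1b and the epidermal genes at 0 were named after their values were seen. S100a8 and S100a9 were named because lists share them. Promoter windows are RefSeq's for GRCm38.p6, searched with Python 3.11.15, and shared windows of 50 bases were counted over the annotated transcripts. Protein sequences were not used here.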

Additional observations from a re-analysis of the deposited data

Results flagged for a closer look

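In 5 of the 40 groups of 4 libraries formed by the 10 genes, 1 library stood apart from the other 3, where chance marks about 1 group in 20. Trp63 was lowest in replicate 3 of AKVPL GFP- at 0.531 CPM, with the next library at 1.95 CPM, and Krt5 was lowest in the same library at 4.64 CPM, with the next at 8.63 CPM. Replicate 2 of AKVPSL GFP+ was highest of its group for Trp63 at 0.1 CPM, which is 3 counts with none in the other 3 libraries, and for Krt13 at 0.603 CPM, with the next at 0.248 CPM. Dsg3 was lowest in replicate 4 of AKVPL GFP+ at 2.44 CPM, with the next at 4.20 CPM.

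Krt14 was marked because its difference between the sorts was not the same in both genotypes. The sort effect in AKVPSL minus that in AKVPL was -2.15 on the log2 scale (edgeR adjusted p = 0.000715).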

How the results depend on the processing

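Of 1225 values of the 50 results of single genes, 1164 kept direction and side of the threshold, 753 of 800 with a library left out and 411 of 425 with another setting. With the replicate number as a block, within genotype or shared by genotypes, the genes called in the difference of sort effects went from 1 to 3 and to 2, and with limma on RPKM to 2, while no other call of the 10 genes changed under a block. Krt4 and Dsg3 passed in the first and Dsg3 in the second. In AKVPSL, numbers 3 and 4 correlated best with each other's partner. Leaving out 1 library gave 4 to 5 called genes between sorts of AKVPL, 4 to 6 in AKVPSL, 4 to 7 between genotypes in GFP+, 6 to 7 in GFP-, and 1 to 2 in the difference (2 without replicate 4 of AKVPL GFP-, 3 or 4 of AKVPSL GFP+, or 2 of AKVPSL GFP-).

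Directions that turned all belonged to differences that did not pass the test. Krt4 between sorts of AKVPSL was -0.0081 with library totals and -0.0237 with no filter, and Sprr2h in the difference of sort effects was 0.54 with limma; the cause was not tested. With single libraries left out the ranges were -0.17 to 0.0695 for Krt14 and -0.44 to 0.12 for Dsg3 between sorts of AKVPL, -3.25 to 0.73 for Trp63 and -0.22 to 0.15 for Krt4 between sorts of AKVPSL, -0.15 to 0.22 for Krt4 between genotypes in GFP+, and -0.53 to 0.0174 for Krt13 and -0.32 to 0.033 for Krt15 in GFP-. In the difference of sort effects they were -3.69 to 0.30 for Trp63, -0.011 to 1.41 for Krt5, -0.13 to 0.52 for Krt6a and -2.29 to 0.0904 for Sprr2h. Epithelial scaling moved the median of all tested genes by -0.19 and 0.12 between sorts of AKVPL and AKVPSL, -0.03 and -0.34 between genotypes in GFP+ and GFP-, and 0.31 in the difference; library totals moved it by -0.11 in GFP-. Sprr2h, Trp63 and Krt13 rest on few counts in some groups, so their fold changes are imprecise, and limma on log2(RPKM + 1) understates them, as it does the changes of Krt14 at the low levels of AKVPSL.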
